A study of Mus musculus with 6 samples.

Results

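The genes described here are 10 chemokines of mouse: Cxcl17, Ccl28 and Ccl20, which epithelia of mucosal surfaces make, and Ccl2, Ccl5, Ccl7, Cxcl10, Cxcl12, Cxcl14 and Cxcl16, which mainly attract monocytes and lymphocytes. They were chosen by name, with earlier results of these data known. Each had exactly 1 transcript cluster annotated with its symbol alone, so 10 of the 30142 genes measured are members. Expression was read on Affymetrix MTA 1.0 whole-transcript arrays, 1 array per tumor. The RNA came from male mice carrying allografts of MCRedAL, a mouse prostate cancer line that makes the red fluorescent protein mCherry, and was taken from cells that the sort had kept for mCherry and freed of cells with the leukocyte antigen CD45, the myeloid antigen CD11b or the macrophage antigen encoded by Adgre1. In 3 samples the mice had received degarelix, which lowers androgen by blocking the pituitary receptor of gonadotropin-releasing hormone, injected under the skin once tumors had grown to a stated size, and in 3 samples the mice were untreated. All 6 samples thus share the line, the host sex and the sort, and differ in degarelix. Mouse strain and age are not given in the labels, the tag 7dPC in the titles of the degarelix samples is not explained there, and all tumors come from 1 cell line, which limits what the groups can stand for.

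Chemokines are small secreted proteins that bind receptors coupled to G proteins on leukocytes and draw these cells along a gradient. The CC and CXC families are named for the spacing of their first cysteines. In glandular tissue such as the prostate, the epithelium itself, resident fibroblasts and infiltrating myeloid cells all make chemokines, many of them under the control of NF-kB and of interferons. Values below are log2 expression after RMA (robust multi-array average, which subtracts background, equalises the arrays and summarises probes), and a difference is degarelix minus untreated on that scale. A gene was called when limma's adjusted p, corrected over all 30142 genes, was under 0.05. Because each gene has its own probes, levels of different genes are not ranked against each other.

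Of the 10 chemokines, 3 rose after degarelix, 2 fell and 5 did not pass the test, with a median difference of 0.34 against 0.04 over all genes. Among all genes 11.7% were called, 4.19% higher and 7.51% lower. Cxcl17, Cxcl14 and Cxcl12 were the chemokines that rose, and Ccl28 and Cxcl10 those that fell. Without degarelix replicate 1, 2 of the 10 were called, and with median centring or every cluster tested on its own 3 were. The groups did not overlap for 7 of the 10, against 31.2% of all genes. As the 10 were chosen with earlier results of these data known, these counts support nothing by themselves. In a test against a 1.2-fold change, which called 2.48% of all genes, Cxcl17 and Ccl28 were called and the other 8 were not. Among all genes the difference of Cxcl17 was the number 8 rise and that of Ccl28 the number 16 fall.

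**Figure D1:**
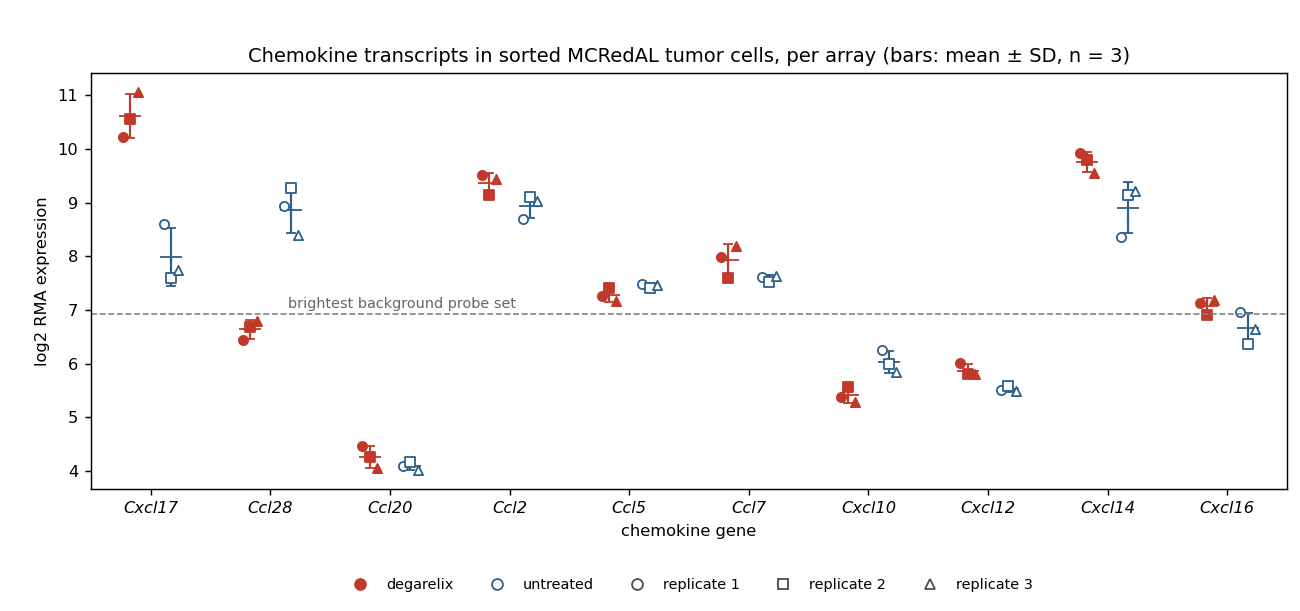
Log2 RMA expression of the 10 chemokines on each array, with degarelix samples as filled red symbols and untreated samples as open blue symbols; the horizontal bar is the mean and the whiskers the SD of 3 arrays, and the dashed line is the brightest background probe set (6.93). Cxcl17 stands at 10.23 to 11.06 after degarelix and 7.60 to 8.60 in untreated samples, and Ccl28 at 6.44 to 6.79 and 8.40 to 9.28.

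Among the mucosal chemokines, Cxcl17, which attracts monocytes, macrophages and dendritic cells, was at 10.23, 10.56 and 11.06 in the degarelix samples, against 8.60, 7.60 and 7.75 in the untreated samples. The groups did not overlap, and every array lay above the brightest of the array's 23 background probe sets. Means were 10.62 ± 0.42 after degarelix and 7.98 ± 0.54 in untreated tumors (SD, n = 3 each), a difference of 2.63 (SE 0.28, 95% interval 2.0 to 3.26), or 6.2-fold (limma adjusted p = 7.57e-04). The 3 degarelix values spanned less than the distance between the groups, and in untreated tumors replicate 1 was the highest. Here, as in any bulk sample, a lower value may come from fewer cells of a type or from less RNA per cell, which cannot be told apart.

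Ccl28, an epithelial chemokine that attracts plasma cells making immunoglobulin A and eosinophils, moved in the other direction. It was at 6.44, 6.69 and 6.79 in the degarelix samples and 8.93, 9.28 and 8.40 in the untreated samples, again without overlap. The difference was -2.23 (SE 0.20, 95% interval -2.68 to -1.77), which is 4.69-fold lower (limma adjusted p = 3.64e-04). All 3 degarelix values were under the 6.93 of the brightest background probe set, and the size of the fall is less certain than its direction. On each array the log2 value of Cxcl17 minus that of Ccl28 was taken, and its mean was 4.86 larger after degarelix (SE 0.43, SD 0.26 after degarelix and 0.71 in untreated samples). The exact two-sided permutation test gave p = 0.10, the smallest that 3 against 3 arrays allow (Benjamini-Hochberg adjusted p = 0.15 over the 3 pairs compared in this way). Because both genes separated the groups completely and in opposite directions, that p was fixed in advance and adds nothing to their separate tests.

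Ccl20, the ligand of Ccr6 that attracts T helper cells making interleukin 17 and immature dendritic cells, was at 4.46, 4.26 and 4.05 after degarelix and at 4.09, 4.17 and 4.02 in untreated tumors. These values overlapped and all lay under the brightest background probe set, where a change may not be detectable. Its difference was 0.16 (95% interval -0.08 to 0.40, limma adjusted p = 0.36).

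Of the CC chemokines that act on monocytes, Ccl2 and Ccl7 are encoded side by side. Ccl2, the main ligand of Ccr2, was bright on every array, at 9.51, 9.15 and 9.45 after degarelix and 8.69, 9.11 and 9.03 in untreated tumors. The groups did not overlap, but the difference of 0.43 (SE 0.13, 95% interval 0.13 to 0.72) missed the threshold (limma adjusted p = 0.0704). With cyclic loess or quantile normalization it passed, at 0.53 and 0.50 (adjusted p = 0.0259 and 0.0311). Ccl7, a ligand of Ccr2, Ccr1 and Ccr3, was at 7.98, 7.59 and 8.20 after degarelix and 7.61, 7.52 and 7.63 in untreated tumors. Degarelix replicate 2 lay among the untreated values, and the difference of 0.34 (SE 0.14, limma adjusted p = 0.17) did not pass the test with that array and did without it (0.51, adjusted p = 0.0258). In both genes degarelix replicate 2 was the lowest of its group. The change of Ccl2 minus Ccl7 was 0.09 (SE 0.18, exact two-sided permutation p = 0.70, also 0.70 after Benjamini-Hochberg adjustment over the 3 pairs).

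Ccl5, which attracts T cells, monocytes and eosinophils, was at 7.26, 7.41 and 7.16 after degarelix and 7.49, 7.41 and 7.46 in untreated tumors. The groups touched without crossing, and the difference of -0.18 (95% interval -0.36 to 0.00) missed the threshold (limma adjusted p = 0.202). Among the chemokines above the background probe sets on all arrays, it was the 1 whose difference was below 0.

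**Figure D2:**
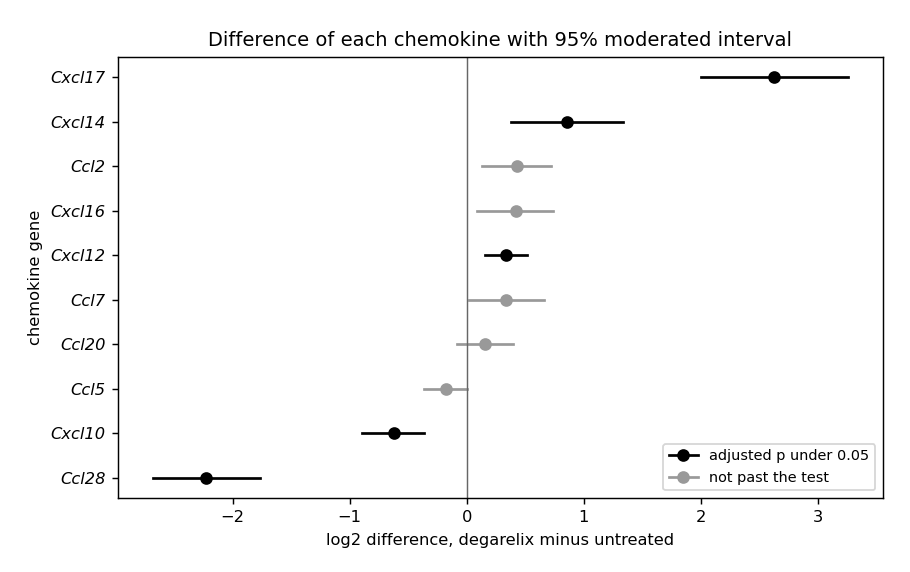
Log2 difference, degarelix minus untreated, of each chemokine as a point with its 95% moderated interval; black marks an adjusted p under 0.05 and grey the others. Cxcl17 (2.63) and Ccl28 (-2.23) lie far from the other 8 chemokines, whose differences run from -0.62 to 0.86.

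Cxcl10, an interferon-induced ligand of Cxcr3 that attracts activated T cells and natural killer cells, was at 5.38, 5.56 and 5.28 after degarelix, against 6.26, 5.99 and 5.85 in untreated tumors. The groups did not overlap, although all 6 values lay below the brightest background probe set. It fell by 0.62 (SE 0.12, 95% interval -0.89 to -0.36, limma adjusted p = 0.0115), and the call ended without degarelix replicate 1 (adjusted p = 0.0535). Untreated replicate 1 had the highest value, and without it the difference was -0.51 (adjusted p = 0.0138). Cxcl9, another ligand of Cxcr3, which lies near Cxcl10 on chromosome 5, went the other way, at 7.46, 7.55 and 7.39 after degarelix and 7.21, 7.05 and 6.97 in untreated tumors. Its rise of 0.39 (SE 0.08, limma adjusted p = 0.0203) ended in 4 of the 14 alternatives other than the 1.2-fold test, with adjusted p up to 0.0869. The log2 value of Cxcl10 minus that of Cxcl9 was lower by 1.01 after degarelix (change -1.01, SE 0.06), with an exact two-sided permutation p = 0.10, the smallest possible (0.15 after adjustment over 3 pairs). That p too was fixed in advance, since both genes separated the groups completely and in opposite directions. The third ligand of Cxcr3, Cxcl11, was at 4.77 to 5.02 after degarelix and 4.81 to 4.92 in untreated samples.

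Cxcl14, a chemokine of resting epithelia and skin whose receptor is not settled, was at 9.93, 9.80 and 9.56 after degarelix, against 8.36, 9.15 and 9.21 in untreated tumors. The lowest degarelix value was above the highest untreated value, and untreated replicate 1 stood below both other untreated samples. The difference was 0.86 (SE 0.21, 95% interval 0.38 to 1.34), or 1.81-fold (limma adjusted p = 0.0327). That call ended with median centring (adjusted p = 0.0691), when every cluster was tested on its own (0.0579), and without degarelix replicate 1, 2 or 3 (0.13, 0.0933 and 0.0516).

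Cxcl12, the ligand of Cxcr4 and Ackr3 that stromal cells release to retain and attract lymphocytes and progenitor cells, was at 6.01, 5.80 and 5.80 after degarelix and 5.51, 5.59 and 5.49 in untreated tumors. The groups did not overlap and all values lay within the background range. The rise of 0.34 (SE 0.08, 95% interval 0.16 to 0.52, limma adjusted p = 0.0296) ended with median centring (adjusted p = 0.0559), with every cluster on its own (0.0587), and without degarelix replicate 1 or 2 or untreated replicate 2 or 3 (adjusted p = 0.0963, 0.0684, 0.0621 and 0.1). Cxcl16, a membrane-bound ligand of Cxcr6 that the protease Adam10 sheds, was at 7.13, 6.91 and 7.18 after degarelix and 6.96, 6.37 and 6.64 in untreated tumors. Here untreated replicate 1 lay above degarelix replicate 2. The difference of 0.42 (SE 0.14) missed the threshold (limma adjusted p = 0.1), and without untreated replicate 1 it was 0.57 (adjusted p = 0.015).

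**Figure D3:**
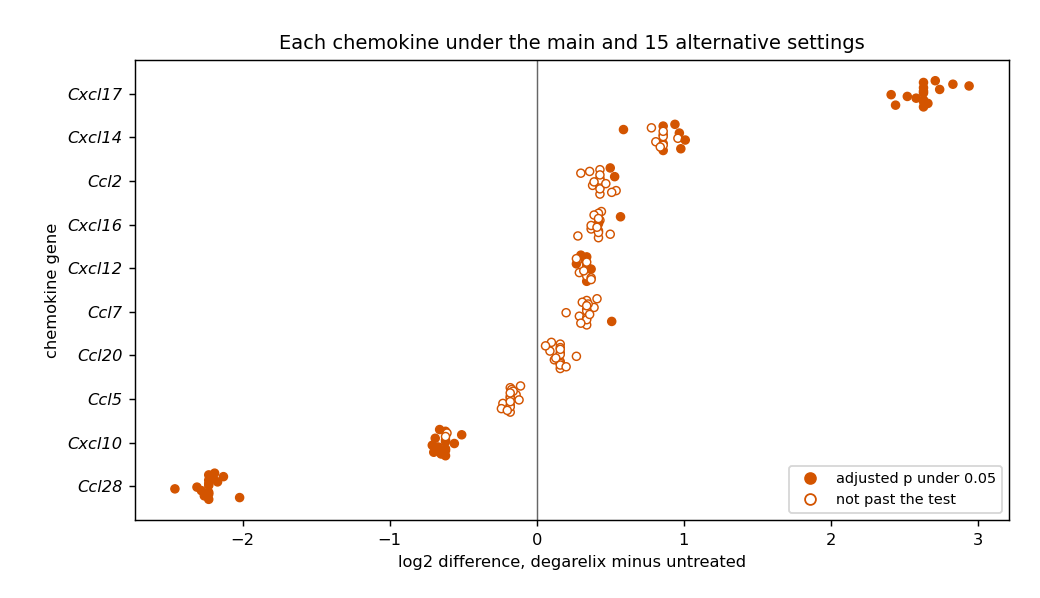
Log2 difference of each chemokine, degarelix minus untreated, in the main fit and 15 alternative settings, 1 point each; filled points have an adjusted p under 0.05, open points do not, and vertical offsets only separate points. Cxcl17 and Ccl28 are filled throughout, while Cxcl10, Cxcl14, Cxcl12, Ccl2, Ccl7 and Cxcl16 hold both kinds of point, and no point crosses 0.

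Of the 10 chemokines, 5 had an entry in the RefSeq promoter table of build GRCm38.p6. The 250 bases before the start are shown for the 4 of these that were called, so that the letters ahead of the genes that fell can be read against those of the genes that rose. Ccl28, which fell, lies on chromosome 13 (chr13:119623569-119623818, plus strand), Cxcl10, which fell, on chromosome 5 (chr5:92348890-92349139, minus strand), Cxcl14, which rose, on chromosome 13 (chr13:56296552-56296801, minus strand) and Cxcl12, which rose, on chromosome 6 (chr6:117168285-117168534, plus strand). Each is written 5′ to 3′ on the gene's strand and ends at the base before the start. Capitals mark motif matches on either strand.
Ccl28: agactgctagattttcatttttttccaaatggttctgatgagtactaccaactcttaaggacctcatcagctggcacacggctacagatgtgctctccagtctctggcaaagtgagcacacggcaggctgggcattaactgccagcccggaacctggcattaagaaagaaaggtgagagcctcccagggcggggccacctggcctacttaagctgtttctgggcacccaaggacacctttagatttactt
Cxcl10: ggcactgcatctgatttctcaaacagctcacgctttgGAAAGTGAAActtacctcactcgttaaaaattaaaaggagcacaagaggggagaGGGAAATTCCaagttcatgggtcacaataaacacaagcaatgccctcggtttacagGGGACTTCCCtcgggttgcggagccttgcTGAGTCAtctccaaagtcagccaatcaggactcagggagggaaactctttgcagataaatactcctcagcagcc
Cxcl14: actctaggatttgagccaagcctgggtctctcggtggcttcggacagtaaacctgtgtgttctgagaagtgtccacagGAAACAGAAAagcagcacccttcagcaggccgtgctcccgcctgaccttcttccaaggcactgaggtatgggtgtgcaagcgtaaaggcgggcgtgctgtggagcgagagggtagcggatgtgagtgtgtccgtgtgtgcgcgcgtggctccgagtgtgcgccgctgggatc
Cxcl12: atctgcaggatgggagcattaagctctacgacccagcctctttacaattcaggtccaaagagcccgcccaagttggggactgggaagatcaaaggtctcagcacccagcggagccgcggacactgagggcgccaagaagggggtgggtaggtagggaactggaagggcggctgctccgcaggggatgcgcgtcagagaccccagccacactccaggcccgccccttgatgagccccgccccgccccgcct
The motifs searched on both strands were the NF-kB consensus, the core of the interferon-stimulated response element (TTTC, any 2 bases, TTTC), the AP-1 site TGANTCA, the TATA box TATAAA and the steroid receptor palindrome (GNACA, any 3 bases, TGTNC). The window of Cxcl10 held 2 NF-kB matches, at -159 to -150 and -103 to -94 from the start, 1 interferon core, at -213 to -204, and 1 AP-1 site, TGAGTCA at -74 to -68, none of which overlapped another. The window of Cxcl14, which rose, held 1 interferon core at -172 to -163. The windows of Ccl28 and Cxcl12 held no match, and that of Ccl20, not shown, held 1 NF-kB match at -80 to -71. Among 32851 promoter windows of the same length, 3.9% held the NF-kB consensus, 2.98% the interferon core, 6.75% the AP-1 site, 12.4% the TATA box and 0.387% the steroid receptor palindrome. Longer forms of 2 motifs were searched after these matches were seen. The interferon regulatory factor element of 12 bases, in 0.177% of windows, matched in Cxcl10, where it overlapped the core, and not in Cxcl14, and a palindrome of 15 bases, in 0.167%, matched in none of the 5. A match is a run of letters, not a shown binding site.

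Genes with array profiles most like those of the chemokines called with a difference of at least 1 were found by the root mean square difference of log2 values over the 6 arrays, after subtracting each gene's own mean. For Cxcl17 the nearest was Fmo2, a flavin-containing monooxygenase gene, at a distance of 0.22, with 7.69, 7.96 and 8.28 after degarelix and 6.39, 5.34 and 5.53 in untreated samples. It was followed by Agt, which encodes angiotensinogen, at 0.29, Vtn, which encodes vitronectin, at 0.30 and the arginase gene Arg1 at 0.32. In Fmo2, as in Cxcl17, degarelix replicate 3 was the highest treated and replicate 1 the highest untreated sample. For Ccl28 the nearest were the cytochrome P450 gene Cyp2t4 at 0.24, Zfp185 at 0.26, the fibrinogen chain gene Fga at 0.27 and Ect2, which acts in cytokinesis, also at 0.27. The log2 differences of those 4 genes were -2.22, -2.31, -1.99 and -2.15. The likeness is a description over 6 arrays in 2 groups, and genes with the same group difference are close by construction.

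Genes next to the chemokines in RefSeq's gene order were also read, as the nearest 2 protein-coding genes on each side, a choice made after the chemokines' values were seen. Of 38 such neighbours 36 were measured and 8 were called, beside 11.7% of all genes. Next to Cxcl17 on chromosome 7, the lipase gene Lipe rose by 0.60 (SE 0.08) and the cell adhesion genes Ceacam1 and Ceacam2 by 0.88 (SE 0.13) and 0.68 (SE 0.10), with limma adjusted p of 0.00245, 0.00337 and 0.00397. Ceacam1 and Ceacam2 are close paralogs whose signals may be shared. Next to Ccl28 on chromosome 13, Hmgcs1, a cholesterol synthesis gene, was lower at -0.65 (SE 0.13, adjusted p = 0.0177) and Tmem267 at -0.44 (SE 0.10, adjusted p = 0.0226), while the next genes out, 4833420G17Rik (-0.12) and Nim1k (0.11), did not pass the test. The other neighbours called were Ccl11, Cxcl9 and Neurog1.

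The receptors of these ligands were dim in the sorted cells. Of 21 receptor genes measured 1 rose and none fell (median 0.03), beside 4.19% and 7.51% of all genes. With median centring 0 rose and 1 fell, with cyclic loess 0 and 2, and with quantile normalization 1 and 2. For 20 both group means lay under the brightest background probe set. The 1 called was Ackr1, a scavenging receptor of red cells and venules, which rose by 0.32 (limma adjusted p = 0.0393), a call that ended in 7 of 14 alternatives. In limma, 0 receptors were called without degarelix replicate 2 or untreated replicate 3, and 2 without untreated replicate 2. With all arrays 7 of the 21 had an unadjusted p under 0.05, beside 7887 of all 30142 genes. Cxcr4, the receptor of Cxcl12, was the receptor whose untreated mean lay above it. It was at 6.81, 6.61 and 6.97 after degarelix and 7.92, 6.76 and 7.45 in untreated tumors, overlapping, with a difference of -0.58 (SE 0.25, limma adjusted p = 0.18). Without untreated replicate 1, the array highest in monocyte and macrophage markers, it was -0.31 (adjusted p = 0.307), and without untreated replicate 2, the lowest in them, -0.89 (adjusted p = 0.0135). Gpr35, once proposed as the receptor of Cxcl17, differed by -0.25 (adjusted p = 0.156), and passed with cyclic loess (-0.33, adjusted p = 0.0306) and quantile normalization (-0.30, adjusted p = 0.0461). For the receptors of Ccl28, Ccr10 was at 5.76 to 6.03 and Ccr3 at 2.71 to 2.96 after degarelix, against 5.85 to 5.95 and 2.79 to 2.82 in untreated tumors, with differences of 0.04 and 0.05. Ccr6 (0.10), Ccr2 (-0.08), Ccr1 (-0.40), Cxcr3 (0.19) and Cxcr6 (0.10) did not pass the test either. The difference of Ccr1 was -0.19 (adjusted p = 0.348) without untreated replicate 1 and -0.61 (adjusted p = 0.0367) without untreated replicate 2. Ccr8, named after its values were seen and under the brightest background probe set on all arrays, differed by -0.57 without overlap (limma adjusted p = 0.0631). Without degarelix replicate 1 its difference was -0.75 (adjusted p = 0.0193). Ackr2 and Ackr3 had clusters with more than 1 symbol and were not analysed here.

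Of 27 other chemokine genes measured, 5 rose and none fell (median 0.09), beside 4.19% and 7.51% of all genes. Besides Cxcl9 they were the neutrophil attractants Cxcl15 by 3.0, Cxcl5 by 0.97 and Cxcl2 by 0.46, and Ccl11, an eosinophil attractant, by 0.38. Those of Cxcl2 and Ccl11 ended in 8 and 5 of 14 alternatives. Cxcl15 and Cxcl5 were called in all 14, and they were the 2 genes of this list called without degarelix replicate 1 or without degarelix replicate 2. Without untreated replicate 2, 6 genes of the list were called, those 2 higher and 4 lower, which were Ccl6 (-1.13, adjusted p = 0.0052), Ccl9 (-0.56, 0.0316), Pf4 (-0.73, 0.0461) and Ccl4 (-0.47, 0.0495), named after their values were seen. For 19 of the 27 both group means lay under the brightest background probe set.

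**Figure D4:**
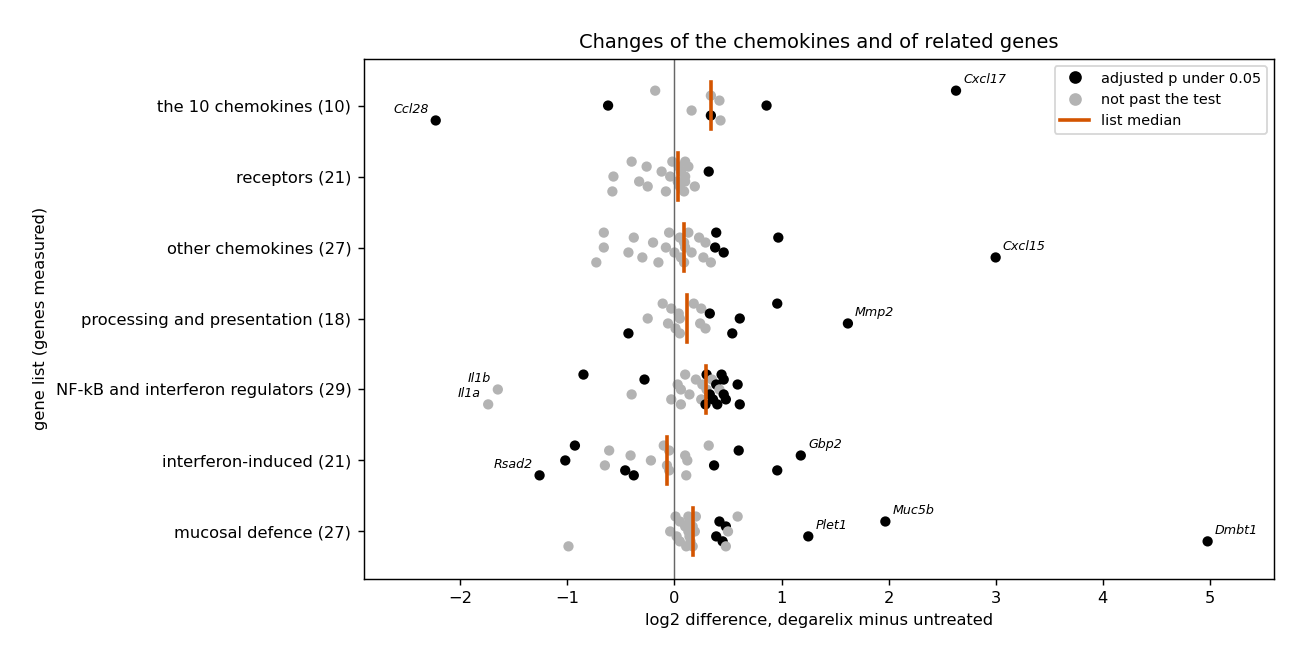
Log2 difference, degarelix minus untreated, of every measured gene of the 10 chemokines and 6 related lists; black points have an adjusted p under 0.05, grey points do not, orange lines are list medians and vertical offsets only separate points. Receptors run from -0.58 to 0.32 (median 0.03), while NF-kB and interferon regulators have a median of 0.29 and interferon-induced genes spread to both sides of a median of -0.07.

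Of 18 measured genes whose products shed, cut or hold chemokines, 5 rose and 1 fell (median 0.12), beside 4.19% and 7.51% of all genes. Adam10, the sheddase of Cxcl16, rose by 0.33 (adjusted p = 0.0467), a call lost in 9 of 14 alternatives, while Adam17, another sheddase, fell by 0.43 (limma adjusted p = 0.00685). The matrix metalloproteinase genes Mmp2 and Mmp14, whose products can clip Ccl7 and Cxcl12, rose by 1.62 and 0.96. The heparan sulfate carrier Sdc4 rose by 0.61 and Ext1, a polymerase of heparan sulfate chains, which bind chemokines, by 0.54. Dpp4, which trims Cxcl10, Cxcl12 and Ccl5, was at 3.40 to 3.47 after degarelix and 3.37 to 3.42 in untreated tumors, within the background range.

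Of 29 measured regulators of NF-kB and interferon signalling, 12 rose and 2 fell (median 0.29), beside 4.19% and 7.51% of all genes. Tnfaip3 and Nfkbiz, which NF-kB induces and which feed back on it, rose by 0.48 and 0.59, the subunit genes Relb and Rel by 0.39 and 0.46, the transcription factor gene Stat3 by 0.40 and the tumor necrosis factor receptor gene Tnfrsf1a by 0.46. The kinase gene Ikbkb (-0.28) and Ifnb1, which encodes interferon beta (-0.85), fell, Ifnb1 with all arrays under the brightest background probe set. Calls among these 8 that ended in some alternatives were those of Tnfrsf1a (2 of 14), Ifnb1 (3) and Ikbkb (9). The list had 6, 8 and 9 called genes without degarelix replicates 1, 2 and 3, 7 without untreated replicate 3 and 7 with median centring. Differences were above 0 for 23 genes and below 0 for 6. The largest were those of the cytokine genes Il1a (-1.74) and Il1b (-1.65), named after their values were seen. Neither overlapped between groups or passed the test (limma adjusted p = 0.0874 and 0.0929), and both were highest in untreated replicate 1. Tnf differed by -0.40 (adjusted p = 0.317).

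Of 21 measured interferon-induced genes, 4 rose and 5 fell (median -0.07), beside 4.19% and 7.51% of all genes. The antiviral genes Rsad2, Ifih1 and Cmpk2 fell, at -1.26, -1.02 and -0.46, as did Ifit1 and Ifit2 at -0.93 and -0.38, each of the last pair in only 4 of 14 alternatives. The GTPase genes Gbp2, Igtp, Iigp1 and Irgm1 rose by 1.18, 0.96, 0.60 and 0.37. Of these, Gbp2 kept its call in all 14 alternatives, Iigp1 in 12, Igtp in 8 and Irgm1 in 7. Ifih1, Cmpk2, Ifit2 and Iigp1 lay under the brightest background probe set on all arrays, as did both group means of 9 of the 21 genes. The list had 4 called genes without degarelix replicate 1 or 2 and 5 without untreated replicate 3.

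Among 27 measured genes of mucosal defence, 7 rose and none fell (median 0.17), beside 4.19% and 7.51% of all genes. These were the samples in which Cxcl17 rose and Ccl28 fell. Dmbt1, a scavenger receptor of mucosal secretions, rose by 4.98 and the gel-forming mucin gene Muc5b by 1.97. The others with the lowest adjusted p were the lactoferrin gene Ltf at 0.48, the nitric oxide synthase gene Nos2 at 0.45 and the membrane mucin genes Muc1 and Muc4 at 0.42 and 0.39. These 4 lay under the brightest background probe set on all arrays, as did both group means of 19 of the 27 genes. The remaining called gene, Plet1, named after its value was seen, rose by 1.25 (limma adjusted p = 0.0278). It lay above that probe set on all arrays, and its call ended in 6 of 14 alternatives. The calls of Muc1, Muc4 and Nos2 ended in 6, 4 and 2 of 14 alternatives, and 4 genes of the list were called without degarelix replicate 1 or 2. Without untreated replicate 2, 6 were higher and the lysozyme gene Lyz1, named after its value was seen, lower (-1.46, adjusted p = 0.0295).

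Markers of other cells were read on the same arrays. Their counts here and in the next paragraph stand beside 4.19% of all genes called higher and 7.51% called lower. An unadjusted p under 0.05 was reached by 7887 of all 30142 genes. Krt8, a keratin of luminal epithelium and of the tumor line, was at 11.83 to 12.09 after degarelix and 11.25 to 11.90 in untreated samples, whereas Epcam and Cdh1, which define most epithelia, were at 3.84 to 3.98 and 4.81 to 5.07 after degarelix and at 3.79 to 3.89 and 4.80 to 4.92 in untreated samples, within the background range. Of the 8 epithelial markers measured 1 rose, the basal keratin gene Krt14 by 0.38 (limma adjusted p = 0.0225), under the brightest background probe set on all arrays, and that call ended in 4 of 14 alternatives. The tight junction gene Cldn4 was at 9.99 to 10.09 after degarelix and 9.12 to 10.46 in untreated samples. Of 4 pan-leukocyte markers limma called 0, and 0 had an unadjusted p under 0.05. All 4 had both means under the brightest background probe set. Their summed linear signal was 175 to 204 after degarelix and 166 to 274 in untreated samples, highest in untreated replicate 1. Of 12 monocyte and macrophage markers 1 rose, Ly6c2 by 1.57, and 11 had differences below 0 that did not pass the test. The summed signal of all 12 was 2040 to 2270 after degarelix and 1090 to 2330 in untreated samples. That sum included Ly6c2, at 10.40 to 10.62 in log2 after degarelix and 8.66 to 9.16 in untreated samples. After degarelix no other marker of the list exceeded 7.17, so the sums there rested mainly on Ly6c2. The mean log2 level of the 12 was 5.98 to 6.05 after degarelix and 6.90, 5.84 and 6.31 in untreated replicates 1, 2 and 3. The sort markers Ptprc (CD45), Itgam (CD11b) and Adgre1 were at most 3.77, 5.30 and 5.02 after degarelix, and highest in untreated replicate 1, at 4.47, 6.15 and 6.05. Untreated replicate 1 was also the highest untreated sample for Cxcl17, Ccl5, Cxcl10 and Cxcl16, and the lowest for Ccl2 and Cxcl14. The part of these cells in those values was not tested beyond leaving that sample out.

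Fibroblasts also make Ccl2, Ccl7, Cxcl12 and Cxcl14. Of 9 measured fibroblast markers 2 rose, Dcn by 1.46 and Fbln1 by 1.07, and none fell (median 0.30). Their mean log2 level was 7.72, 7.53 and 8.13 in degarelix replicates 1, 2 and 3, against 7.16, 7.16 and 7.39 in the untreated samples, and their summed linear signal was 2340 to 3670 after degarelix and 1990 to 2340 in untreated samples. Ccl7 too was lowest in degarelix replicate 2 and highest in degarelix replicate 3. Ccl2 was lowest in replicate 2 but highest in replicate 1, while Cxcl14 was lowest in replicate 3 and Cxcl12 highest in replicate 1. Without degarelix replicate 3 the difference was 0.37 for Cxcl12 (adjusted p = 0.0377) and 0.96 for Cxcl14 (adjusted p = 0.0516). It was 0.20 for Ccl7 (adjusted p = 0.277) and 0.39 for Ccl2 (adjusted p = 0.128). The part of fibroblasts in these differences was not tested. Markers of neutrophils (1 of 8 called, Ly6g, which rose by 0.38), T and natural killer cells (0 of 10 by limma, and 0 at an unadjusted p under 0.05), B and plasma cells (0 of 5, and 1) and dendritic cells (0 of 6, and 1) all had both group means under the brightest background probe set. Their summed signals were 206 to 233, 267 to 316, 181 to 189 and 137 to 150 after degarelix, against 208 to 217, 257 to 296, 156 to 169 and 132 to 151 in untreated samples. Of 7 endothelial and 6 mural markers 1 each fell, Vwf at -0.71 and Rgs5 at -0.73, with summed signals of 494 to 512 and 855 to 1020 after degarelix and 594 to 725 and 916 to 1220 in untreated samples.

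**Figure D5:**
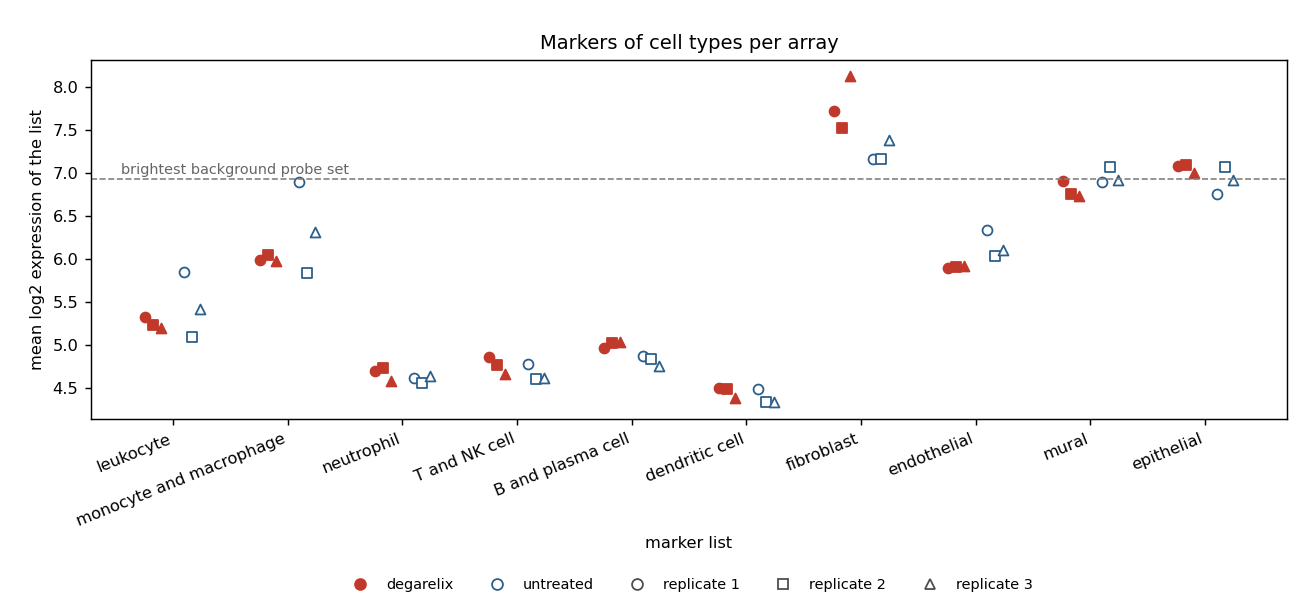
Mean log2 expression of each marker list on each array, with degarelix samples as filled red symbols, untreated samples as open blue symbols and the brightest background probe set as a dashed line. Monocyte and macrophage markers are highest in untreated replicate 1 (6.90), and fibroblast markers are higher in all degarelix samples (7.53 to 8.13) than in all untreated samples (7.16 to 7.39).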

How the data were processed

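Biotin-labelled RNA of sorted tumor cells was hybridised to 6 arrays, 3 for degarelix and 3 for untreated tumors, which the labels call biological replicates. The authors deposited log2 expression values made with Affymetrix Expression Console and RMA, per the submitters' processing notes; which versions and settings were used, and on which genome build, is not given in the sources used here. The RMA step equalises arrays and compresses changes of dim genes. The table had 72688 rows, of which 6732 control and background rows were left out. The 23 background probe sets reached 6.93, and 29.8% to 30.9% of genes per array lay above that. Of 65956 clusters 30604 had 1 gene symbol, 2146 several and 33206 none. Symbols were updated through Entrez identifiers (827 changed) with RefSeq of GRCm38.p6, and the brightest cluster of each of 30142 genes was tested without a filter, since dim genes have values too. The number of arrays limits the precision.

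The difference between degarelix and untreated samples was tested with limma 3.58.1 under R 4.3.3 (lmFit, eBayes, two-sided, Benjamini-Hochberg over all genes), after the script was tested on simulated data. The 10 chemokines and all gene lists were chosen with earlier results of these data known, so counts over them support nothing by themselves and no list test was made. Named were all 10 chemokines, their main receptors and processing enzymes, and from each list every called gene, or the 6 with the lowest adjusted p if more than 6, with called genes against the list's median. In the list of interferon-induced genes Rigi and Ddx58 are names of 1 gene, counted once. Likeness passed over unnamed models, small RNAs, smell receptors and immune receptor segments. The alternatives tried were quantile normalization, cyclic loess, median centring, an intensity trend with robust variances, a filter on dim genes (mean over arrays above 3.26, the median background probe set), the mean of a gene's clusters, every cluster on its own, a replicate block, leaving out each sample, and a test against a 1.2-fold change. Python 3.11.15 with pandas 2.3.3 wrote the tables, and matplotlib 3.10.9 drew the plots.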

Additional observations from a re-analysis of the deposited data

How the results depend on the processing

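Cxcl17 and Ccl28 kept their direction and call in all 15 alternatives, and no chemokine changed direction in any. Leaving out 1 sample at a time gave 2.41 to 2.94 for Cxcl17, -2.46 to -2.02 for Ccl28, 0.06 to 0.27 for Ccl20, 0.30 to 0.54 for Ccl2, -0.24 to -0.12 for Ccl5, 0.20 to 0.51 for Ccl7, -0.71 to -0.51 for Cxcl10, 0.27 to 0.37 for Cxcl12, 0.59 to 1.01 for Cxcl14 and 0.28 to 0.57 for Cxcl16. The test against a 1.2-fold change, which asks for more, ended the calls of Cxcl10 (-0.62, adjusted p = 0.178), Cxcl12 (0.34, 1) and Cxcl14 (0.86, 0.233). Median centring ended those of Cxcl12 (0.29) and Cxcl14 (0.81), and testing every cluster on its own, with more clusters in the correction, ended the same 2 (0.34 and 0.86). Ccl2 passed with cyclic loess (0.53) and quantile normalization (0.50).

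The number of chemokines called was 3 with median centring or every cluster on its own, 2 in the 1.2-fold test and 2 to 6 without 1 sample. Over all genes, 3526 were called, 749 in the 1.2-fold test and 1590 to 4700 without 1 sample; the numbers were 1590 and 1833 without degarelix replicates 1 and 2, and 2113 and 1972 without untreated replicates 2 and 3. Of the genes called, 35.8% were higher after degarelix, 26.3% (691 higher, 1939 lower) with median centring, 43.6% (1550 and 2004) with cyclic loess and 44.9% (1646 and 2021) with quantile normalization. Without 1 sample, 0 to 2 receptors, 2 to 6 other chemokines, 5 to 6 processing genes, 6 to 15 regulators, 4 to 10 interferon-induced genes and 4 to 8 mucosal defence genes were called. The 1.2-fold test called 0, 2, 1, 0, 3 and 2 of these lists in the same order. Median centring called 3 other chemokines, 7 regulators, 5 interferon-induced and 4 mucosal defence genes. With every cluster on its own the calls were 0 receptors, 9 regulators and 5 interferon-induced genes. Cyclic loess called 2 receptors and quantile normalization 3.

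Replicate numbers are shared by the groups, but the labels do not state a pairing. Deviations of same-numbered samples from their group means correlated at 0.16, 0.04 and 0.20 across genes. Each sample correlated best with its own number, but with 3 samples per group this check cannot decide whether the numbers pair the samples. With the replicate block 3806 genes were called; Cxcl14 lost its call (0.86, adjusted p = 0.056) and Cxcl16 gained one (0.42, adjusted p = 0.0392). The cause of these shifts was not tested. Values near the background probe sets, as of Ccl20, Cxcl10 and Cxcl12, limit what can be seen, and 3 arrays per group limit all tests.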
